A study of Homo sapiens with 15 samples.

Results

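BH3-only genes encode proteins of the BCL2 family that share a single short domain, BH3, and promote cell death. The 8 genes described here are BCL2L11, BBC3, BID, BMF, BAD, PMAIP1, HRK and BIK, taken by name, as members of the family, from the 57773 genes in the count files. Counts were high enough for testing in 7 of them, out of 13085 genes tested. BIK had 0 reads in every library. No BH3-only gene passed the threshold in any of the 9 comparisons in the main edgeR fit of all libraries. Other fits of the same libraries did call members in some comparisons. DESeq2, for example, called 2 with elesclomol against PBS, where 0.375% of the genes it tested passed. BCL2L11 ranged from 123.8 to 432.7 CPM (counts scaled to library size) over the 15 libraries.

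BH3-only proteins act upstream of BAX and BAK, the effectors that open the outer mitochondrial membrane and release cytochrome c. They do so by occupying the groove of the survival proteins BCL2, BCL-XL (gene BCL2L1) and MCL1, and some of them also activate BAX and BAK directly. Cells set their level by transcription, by phosphorylation and by degradation at the proteasome, and myeloma cells are known for a strong reliance on MCL1, so the RNA levels given here are 1 of several layers.

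RNA was measured in femoral marrow of SCID-beige mice, which lack working lymphocytes, after injection by vein of MM.1S, an established human multiple myeloma line carrying green fluorescent protein and luciferase reporters. The control group is labelled PBS, while the protocol describes weekly saline by vein. Bortezomib, a proteasome inhibitor, was given at 0.25 mg/kg into the abdomen weekly, and elesclomol, a copper ionophore, at 25 mg/kg under the skin. The combination group had both drugs from the start, and the delayed combination group had bortezomib with elesclomol added 14 days after inclusion. Each group held 5 treated mice, and 3 libraries per group were sequenced, so n = 3 throughout. All groups carry the same engrafted line, mouse marrow cells are part of each pellet, and mice were taken at limb paralysis or severe toxicity, with no statement of which endpoint each mouse reached. In such bulk samples, fewer cells of a type and less RNA per cell cannot be told apart.

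Total counts were 4500326 to 13161087 per library, which limits the precision of the low genes. Values per kilobase (kb) divide CPM by the exon length of the gene. Of 10 plasma cell markers, 9 were detected in every library and summed to 13460 to 16720 CPM, while CD27 was at 0 in 11 libraries. Of 51 marrow host markers, 25 were tested, and their mean level was highest in elesclomol 1 (3.81 log2 CPM, against 1.87 to 2.84 in the others). Their summed level was 339 to 353 CPM with PBS, 365 to 405 with bortezomib, 352 to 905 with elesclomol, 348 to 392 in the combination group and 329 to 522 in the delayed group. The macrophage marker MARCO and the NK cell marker KLRD1 were at 0 in all libraries. Bortezomib 1, combination 1 and delayed combination 2 were shifted towards GC-rich genes. In these 3 libraries the correlation across genes between GC content and the deviation of the log2 level from its mean was 0.51, 0.49 and 0.32.

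Sequence upstream of the start site is shown for BCL2L11 and BMF, the 2 members with the highest log2 values against PBS with either single drug. Both stretches come from RefSeq (GRCh38.p14), a newer build than the GRCh37 used for alignment. That of BCL2L11 is the plus strand of chr2:111120664-111120913, the 250 bases before the start site. That of BMF is the minus strand of chr15:40108900-40109129, 230 bases that end 20 bases before the start site. Of the GENCODE 29 transcripts, 10 of 25 for BCL2L11 and 2 of 10 for BMF begin at these start sites. For BCL2L11, 1 transcript begins 1536 bases further upstream, so its stretch lies in an intron of that transcript, and 1 of BMF begins 13 bases upstream. Neither stretch overlaps an exon of that annotation (0 exons). Capitals mark the FOXO letters GTAAACA.
BCL2L11: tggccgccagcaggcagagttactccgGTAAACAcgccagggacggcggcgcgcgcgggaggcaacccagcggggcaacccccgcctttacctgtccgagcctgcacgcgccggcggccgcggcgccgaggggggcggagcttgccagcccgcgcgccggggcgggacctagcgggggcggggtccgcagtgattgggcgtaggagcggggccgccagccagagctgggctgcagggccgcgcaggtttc
BMF: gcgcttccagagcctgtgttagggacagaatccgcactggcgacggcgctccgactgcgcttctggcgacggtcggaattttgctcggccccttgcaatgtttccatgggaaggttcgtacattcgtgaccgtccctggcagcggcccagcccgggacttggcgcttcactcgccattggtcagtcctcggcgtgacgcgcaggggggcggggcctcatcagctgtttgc

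Of the 8 genes, 7 had promoter windows around the start site in that table, and BIK had no entry. GTAAACA was searched on both strands, with the AP-1 letters TGAGTCA and the cyclic AMP response letters TGACGTCA. BCL2L11 held GTAAACA once, beginning 223 bases before the start site. These letters occur in 3.42% of the 34943 windows in the table. BBC3 held TGAGTCA once, beginning 113 bases before the start site, and 4.96% of windows hold it. TGACGTCA occurs in 1.84% of windows and in no window of the members. A match is a description of the letters and not a measured binding site.

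BCL2L11 (ENSG00000153094), which encodes BIM, a BH3-only protein that binds every main survival protein and can activate BAX and BAK, was the most abundant member per length, at a mean of 37.8 CPM per kb over the 15 libraries. BAD stood at 16.2 and BID at 8.08 CPM per kb on the same scale. PMAIP1 was at 3.34, BMF at 2.86, BBC3 at 1.89 and HRK at 0.165 CPM per kb. These levels span a wide range within 1 family, with BIM transcripts at the top.

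The PBS libraries held BCL2L11 at 182.6, 153.6 and 123.8 CPM. With bortezomib alone they were 163.8, 432.7 and 417.4 CPM. With elesclomol alone they were 431.9, 403.7 and 349.5 CPM. Bortezomib 1 thus lay within the PBS range while its 2 companions lay far above it, and every elesclomol library lay above every PBS library. The combination gave 192.2, 137.5 and 205.7 CPM, and the delayed combination 197.7, 167.7 and 215.5 CPM. Both groups that received both drugs overlapped PBS and lay wholly below elesclomol alone.

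**Figure D1:**
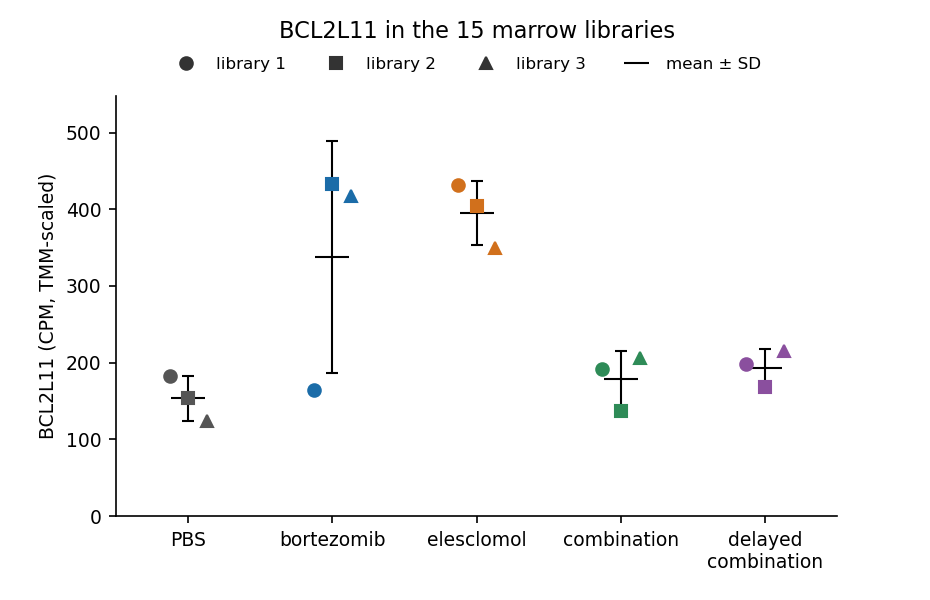
BCL2L11 level (CPM, vertical axis from 0) in each library of the 5 groups, with symbols for libraries 1 to 3 and bars for mean ± SD (n = 3). The 3 elesclomol libraries and bortezomib 2 and 3 lie at 349.5 to 432.7 CPM, and the other 10 libraries at 123.8 to 215.5 CPM.

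Ordered by level, the 15 libraries were separated by no more than 1.155-fold between neighbours except at 1 place. That gap ran from 215.5 CPM in delayed combination 3 to 349.5 CPM in elesclomol 3, a ratio of 1.622. Above it were the 3 elesclomol libraries with bortezomib 2 and 3, and below it were the other 10. Group means were 153 ± 29.4 (SD) CPM for PBS, 179 ± 36.1 for the combination, 194 ± 24.2 for the delayed combination, 338 ± 151 for bortezomib and 395 ± 41.9 for elesclomol. PBS, the combination and the delayed combination are neighbours in this order whose libraries overlap, and bortezomib overlaps all 4 other groups. The wide bortezomib SD rests on bortezomib 1, which is also the library with the highest GC correlation (0.51). Combination 1 had a GC correlation of 0.49 and a BCL2L11 level inside its group's range. Delayed combination 2, with a GC correlation of 0.32, had the lowest level of its group. Fits without bortezomib 1 and without the 3 GC-rich libraries are given below. The cause of the low level in bortezomib 1 was not tested.

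Relative to PBS, the log2 fold change of BCL2L11 was 1.14 ± 0.30 (SE) with bortezomib (edgeR adjusted p = 0.419) and 1.37 ± 0.30 with elesclomol (adjusted p = 0.202). It was 0.22 ± 0.30 with the combination (95% interval -0.36 to 0.80, adjusted p = 0.742). It was 0.34 ± 0.30 with the delayed combination (95% interval -0.24 to 0.92, adjusted p = 0.621). These 4 comparisons share the 3 PBS libraries, and none of the 4 values passed the adjusted threshold of 0.05 over all genes. Without bortezomib 1 the bortezomib value was 1.47 with adjusted p = 0.0095 and the elesclomol value 1.37 with adjusted p = 0.00254, both past the threshold. That omission takes out the only bortezomib library within the PBS range. Without bortezomib 2 the bortezomib value was 0.92. Over all single omissions the edgeR adjusted p reached 0.690 for bortezomib and 0.629 for elesclomol. DESeq2 also called elesclomol against PBS (1.36, adjusted p = 0.00182). Host markers had the same direction: with elesclomol 21 of the 25 tested had a log2 value above 0, and 0 passed the threshold. Elesclomol 2 and 3 held BCL2L11 at 403.7 and 349.5 CPM, with summed host markers of 371.6 and 351.8 CPM. Their mean host marker levels were 2.07 and 2.69 log2 CPM, against 1.99 to 2.15 with PBS. Without elesclomol 1 the BCL2L11 value was 1.30 (edgeR adjusted p = 0.612). The cause was not tested.

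BMF (ENSG00000104081), a BH3-only protein held by dynein light chains at the cytoskeleton until it is released, had a level of 10.84, 7.163 and 10.73 CPM in the PBS libraries. It was at 14.03, 14.02 and 17.94 CPM with bortezomib and at 21.94, 23.8 and 19.96 CPM with elesclomol. The combination libraries were at 21.54, 10.97 and 14.4 CPM, and the delayed combination at 15.15, 17.5 and 14.02 CPM. Every one of the 12 treated libraries lay above all 3 PBS libraries, though combination 2 exceeded the highest of them by a small margin. The log2 fold change was 1.21 ± 0.23 with elesclomol (edgeR adjusted p = 0.0677), the 15th smallest p among 13085 genes. It was 0.68 ± 0.23 with bortezomib (adjusted p = 0.427), 0.73 ± 0.23 with the combination (adjusted p = 0.275) and 0.71 ± 0.22 with the delayed combination (adjusted p = 0.362). For elesclomol the gene passed the threshold without combination 1 (adjusted p = 0.00869), without combination 2 (adjusted p = 0.0275) and in DESeq2 (1.2, adjusted p = 0.00142). Of the alternative fits, 7 passed and 19 did not. Over all single omissions the edgeR adjusted p reached 0.594.

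BID (ENSG00000015475), which links death receptors to mitochondria once caspase-8 cleaves it, was at 31.6, 31.24 and 28.91 CPM in the PBS libraries. It was at 41.87, 35.19 and 37.39 CPM with bortezomib, 41.43, 35.78 and 36.13 CPM with the combination, and 39.91, 45.11 and 38.91 CPM with the delayed combination. These 9 libraries, all from mice given bortezomib, lay above every PBS library. The highest value of each of these groups was in its GC-rich library (bortezomib 1, combination 1 and delayed combination 2). The elesclomol libraries, at 30.77, 29.39 and 35.43 CPM, overlapped PBS. The log2 fold change was 0.43 ± 0.11 with the delayed combination (edgeR adjusted p = 0.252), 0.32 ± 0.11 with bortezomib (adjusted p = 0.438) and 0.31 ± 0.11 with the combination (adjusted p = 0.299). Under the alternative fits of all kinds except single omissions, the lowest values were 0.36, 0.24 and 0.22 in that order. With elesclomol alone the value was 0.06 ± 0.11 (95% interval -0.16 to 0.28, adjusted p = 0.932).

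BAD (ENSG00000002330), a sensitizer that binds BCL2 and BCL-XL and is inactivated by survival kinases, was at 25.73, 25.91 and 25.1 CPM in the PBS libraries. It was at 37.04, 27.73 and 26.63 CPM with bortezomib and at 22.85, 25.34 and 24.59 CPM with elesclomol. It was at 32.37, 26.01 and 27.67 CPM with the combination and at 27.36, 29.89 and 29.59 CPM with the delayed combination. Libraries of all 3 groups given bortezomib lay above PBS, by as little as 26.01 against 25.91 CPM. The highest values, in bortezomib 1 and combination 1, belong to the GC-rich libraries, and the exons of BAD are 66.3% G or C. The log2 fold change was 0.26 ± 0.13 with bortezomib (adjusted p = 0.476), 0.17 ± 0.13 with the combination (adjusted p = 0.545) and 0.18 ± 0.13 with the delayed combination (adjusted p = 0.554). After an offset for GC content and length these values were 0.05, -0.08 and -0.01. With elesclomol the value was -0.08 ± 0.13 (adjusted p = 0.923).

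PMAIP1 (ENSG00000141682) encodes NOXA, a BH3-only protein that binds MCL1 and marks it for degradation, and was the member with the lowest log2 values in all 4 comparisons with PBS. The PBS libraries were close together, at 10.16, 10.97 and 10.04 CPM. Bortezomib gave 7.132, 9.599 and 10.39 CPM and overlapped them. Elesclomol gave 4.875, 7.279 and 4.504 CPM, the combination 5.855, 4.81 and 4.376 CPM, and the delayed combination 8.033, 8.293 and 5.675 CPM. All 9 libraries from mice given elesclomol thus lay below every PBS library. The log2 fold change was -1.04 ± 0.23 with the combination (edgeR adjusted p = 0.159) and -0.91 ± 0.22 with elesclomol (adjusted p = 0.237). It was -0.51 ± 0.21 with the delayed combination (adjusted p = 0.431) and -0.22 ± 0.22 with bortezomib (95% interval -0.64 to 0.21, adjusted p = 0.669). With an offset for GC content and length the bortezomib value was 0.06. DESeq2 called the combination value (-1.05, adjusted p = 0.0285). These rest on 31 to 96 reads per library.

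BBC3 (ENSG00000105327), which encodes PUMA, the BH3-only protein best known as a target of p53, was at 4.059 to 8.507 CPM and 24 to 79 reads per library. Its group means were 6.03 ± 1.32 (SD) CPM with PBS, 5.53 ± 2.10 with bortezomib, 5.25 ± 1.42 with elesclomol, 7.00 ± 1.36 with the combination and 6.198 ± 0.598 with the delayed combination. All 4 treated groups overlapped PBS. The log2 fold change was -0.08 ± 0.28 with bortezomib, -0.18 ± 0.28 with elesclomol, 0.24 ± 0.27 with the combination and 0.05 ± 0.27 with the delayed combination. Adjusted p was 0.686 to 0.942 and each 95% interval included 0. With an offset for GC content and length, the values of the combination and the delayed combination were -0.02 and -0.14, and the exons of BBC3 are 69.7% G or C.

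HRK (ENSG00000135116), known from dying neurons and from haematopoietic cells after withdrawal of growth factor, had 1 to 16 reads per library. The extremes were PBS 1, with 1 read (0.2257 CPM, exact 95% Poisson interval 0.00572 to 1.26), and elesclomol 2, with 16 reads (2.24 CPM, interval 1.28 to 3.64). These intervals cover counting error only. The log2 fold change against PBS was 0.32 ± 0.52 with bortezomib, 0.68 ± 0.50 with elesclomol, 0.33 ± 0.51 with the combination and 0.04 ± 0.50 with the delayed combination (adjusted p = 0.777 to 0.979). No difference was detectable at this depth. Without PBS 1 the bortezomib, combination and delayed combination values were -0.05, -0.04 and -0.33. BIK (ENSG00000100290), a BH3-only protein of the endoplasmic reticulum, had 0 reads in 15 libraries, which allows up to 0.0256 CPM over all of them and 0.243 to 0.677 CPM in a single one.

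**Figure D2:**
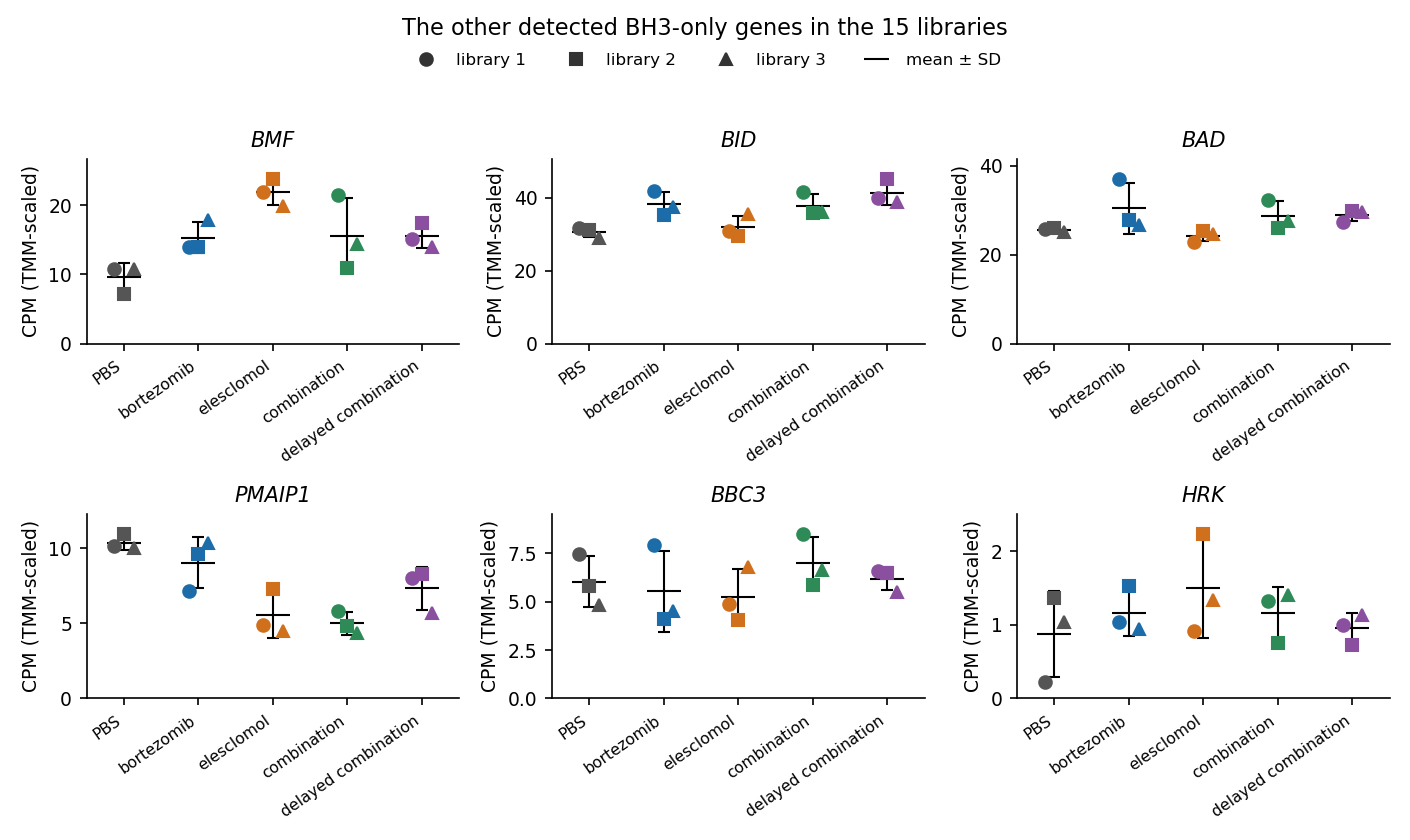
Level of the other 6 detected BH3-only genes (CPM, vertical axes from 0) in each library of the 5 groups, with symbols for libraries 1 to 3 and bars for mean ± SD (n = 3). Every treated library lies above the PBS libraries for BMF, and every library from mice given elesclomol lies below them for PMAIP1 (4.376 to 8.293 against 10.04 to 10.97 CPM).

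Counted over the family in the main edgeR fit, 0 of the 7 tested members passed the threshold with bortezomib, against 0% of all genes tested. With elesclomol 0 passed, against 0.0688% of all genes. With the combination and with the delayed combination 0 passed, against 0% of all genes in each. At an unadjusted edgeR p under 0.05 there were 3 members in each of the 4 comparisons, while 10.6% of all genes met it with bortezomib, 8.07% with elesclomol, 13.6% with the combination and 11.1% with the delayed combination. The 3 were BCL2L11, BMF and BID with bortezomib and BCL2L11, BMF and PMAIP1 with elesclomol. With both groups of both drugs they were BMF, BID and PMAIP1.

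Groups that did not overlap PBS were found for 3 members with bortezomib (20.2% of all genes), 3 with elesclomol (19.8%), 4 with the combination (22.2%) and 4 with the delayed combination (27.5%). The share of all genes that did so in several groups at once, as BMF, BID, BAD and PMAIP1 did, was not counted. PBS replicates were closer together than treated ones (Pearson r of log2 CPM 0.9837 to 0.9855 against 0.956 to 0.9822). The median log2 fold change of the 7 tested members was 0.32 with bortezomib, 0.06 with elesclomol, 0.24 with the combination and 0.18 with the delayed combination, against 0.00 to 0.02 over all genes tested. By DESeq2, 2 members passed with elesclomol (BCL2L11 and BMF), against 0.375% of the genes DESeq2 tested. It called 1 with the combination (PMAIP1, against 0.432% of genes), 0 with bortezomib (0.0688%) and 0 with the delayed combination (0.414%).

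**Figure D3:**
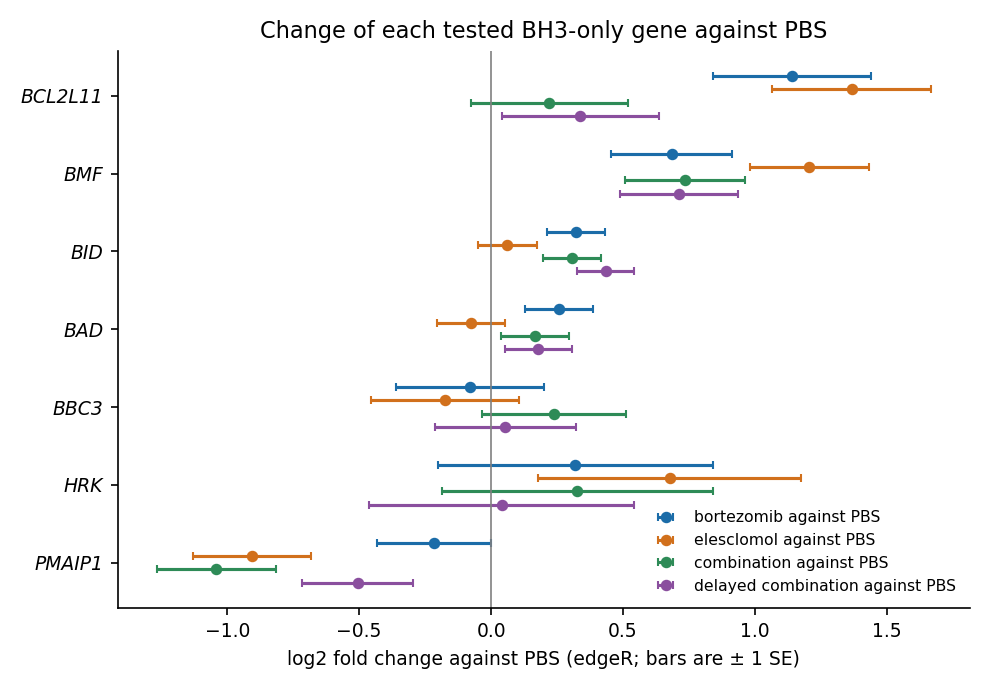
Log2 fold change against PBS (horizontal axis, edgeR) of the 7 tested BH3-only genes in each treated group, with bars of 1 SE. BCL2L11 is at 1.14 and 1.37 with the single drugs and at 0.22 and 0.34 with both, BMF is above 0 in all 4, and PMAIP1 is below 0 in all 4.

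Adding a second drug was examined by comparing the combination with each single drug. Against elesclomol alone, the log2 difference of BCL2L11 in the combination was -1.15 ± 0.30 (edgeR adjusted p = 0.209), and the 3 combination libraries lay below the 3 elesclomol libraries. BMF differed by -0.47 ± 0.21 (adjusted p = 0.381) and BID by 0.25 ± 0.11 (adjusted p = 0.381). In this comparison 0 members passed (0% of all genes), 3 had p under 0.05 (12.2%) and 3 did not overlap (16%). The last were BCL2L11 below elesclomol alone, with BID and BAD above it. DESeq2 called BCL2L11 here (-1.15, adjusted p = 0.0239), 1 member against 0.405% of genes, as did the fit without bortezomib 1 (adjusted p = 0.021). Over all single omissions the edgeR adjusted p of BCL2L11 reached 0.473.

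Against bortezomib alone, BCL2L11 in the combination differed by -0.92 ± 0.30 (edgeR adjusted p = 0.999), with overlap through bortezomib 1. PMAIP1 differed by -0.83 ± 0.23 (adjusted p = 0.999), with combination libraries at 4.376 to 5.855 CPM below bortezomib libraries at 7.132 to 10.39 CPM. Here 0 members passed (0%), 2 had p under 0.05 (4.23%) and 1 did not overlap (8.19%). By DESeq2 0 members passed (0.00765% of genes). Deviations of same-numbered libraries of these 2 groups correlated at 0.655, 0.523 and 0.118, and those of differently numbered ones at up to 0.222. The first pair, bortezomib 1 and combination 1, are both GC-rich libraries. With the replicate number as a block in these 6 libraries, BCL2L11 was at -0.81 (adjusted p = 0.699) and PMAIP1 at -0.79 (adjusted p = 0.320).

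The delayed combination was also compared with bortezomib alone and with the combination. BCL2L11 differed by -0.80 ± 0.30 (edgeR adjusted p = 1.00) from bortezomib alone. Without bortezomib 1 it differed by -1.13 (adjusted p = 0.0451), and without bortezomib 2 by -0.58. In that comparison 0 members passed (0%), 1 had p under 0.05 (3.52%) and 0 did not overlap (6.69%). Between the delayed and the simultaneous combination, BCL2L11 differed by 0.12 ± 0.30 (95% interval -0.46 to 0.70, adjusted p = 1) and by -0.04 without combination 2. PMAIP1 was higher in value with the delay, by 0.54 ± 0.22 (adjusted p = 1). There 0 members passed (0%), 1 had p under 0.05 (2.63%) and 0 did not overlap (7.59%). DESeq2 called 0 members in either comparison, against 0.0459% of genes for the delayed combination and bortezomib and 0% for the delayed combination and the combination.

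The interaction asks whether the value with both drugs differs from the sum of the 2 single-drug values on the log2 scale. It was -2.29 ± 0.42 for BCL2L11 (95% interval -3.11 to -1.46, edgeR adjusted p = 0.107), the 17th smallest p of 13085. In terms of levels, elesclomol went with 395 against 153 CPM in the absence of bortezomib, and with 179 against 338 CPM in its presence. BMF had an interaction of -1.16 ± 0.31 (adjusted p = 0.350). Neither passed in the main edgeR fit of all libraries, where 0 members were called (0.00764% of all genes), and 2 members had p under 0.05 (8.79%). DESeq2 called the BCL2L11 interaction (-2.28, adjusted p = 8.59e-05), 1 member against 0.245% of genes, and so did the fit without bortezomib 1 (-2.62, adjusted p = 3.07e-04). Without bortezomib 2 it was -2.07. With the mean log2 level of host markers in the model it was -2.15 (adjusted p = 0.271), and without elesclomol 1 it was -2.22 (adjusted p = 0.329). The interaction of the host markers had the same sign in 23 of 25, of which 0 passed.

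BCL2L11 was then set against its survival partners, as reads per 100 reads of the partner in the same library. Such a ratio needs no scaling by library size, and it is not corrected for gene length. Per 100 MCL1 reads, BCL2L11 had 13.4 to 19.2 reads with PBS and 45.4 to 72.5 with elesclomol. It had 19.7, 47.6 and 55.2 with bortezomib. The range was 17.9 to 26.0 in the combination group and 19.6 to 33.3 in the delayed group. The elesclomol ratio was thus above all PBS ratios and above both groups given both drugs. MCL1 itself was lower in every treated group than with PBS, as given below, which by itself raises ratios to MCL1. Per 100 BCL2 reads the means were 83.6 ± 10.7 (SD) with PBS, 188 ± 80.6 with bortezomib, 210 ± 27.2 with elesclomol, 92.3 ± 18.5 with the combination and 112 ± 8.52 with the delayed combination. PMAIP1, whose protein is selective for MCL1, had 1.065 to 1.086 reads per 100 MCL1 reads with PBS and 0.552 to 0.718 with the combination, while the other 3 groups overlapped PBS.

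**Figure D4:**
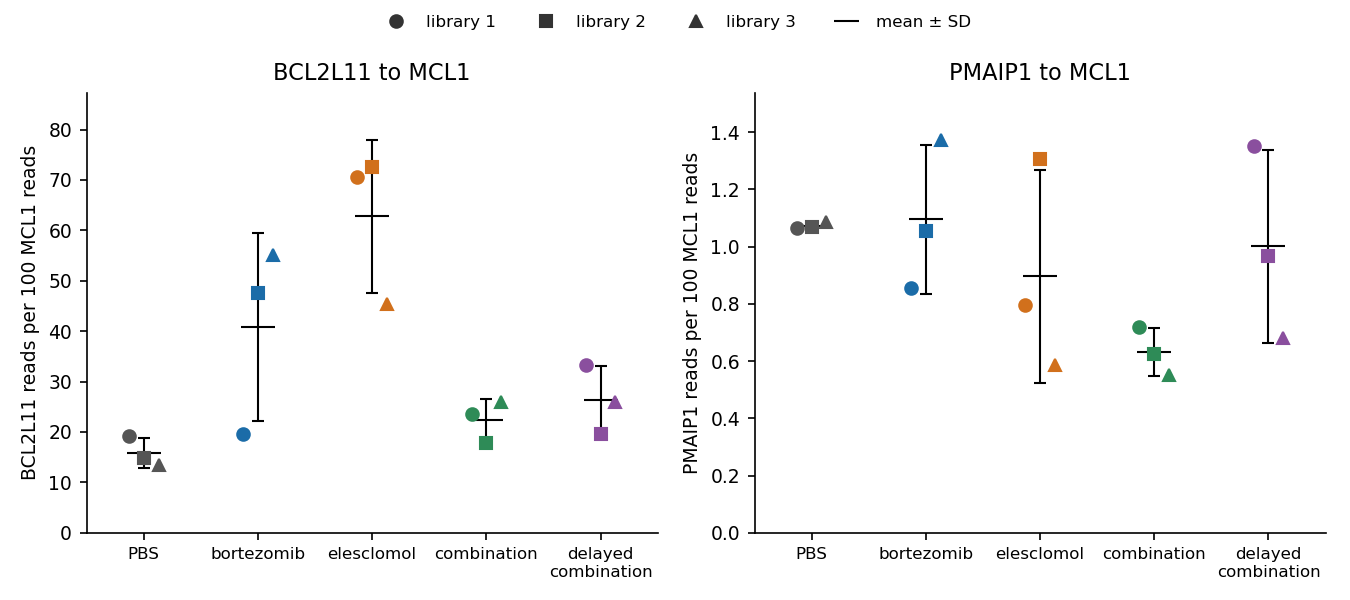
Reads of BCL2L11 (left) and PMAIP1 (right) per 100 MCL1 reads in each library (vertical axes from 0), with symbols for libraries 1 to 3 and bars for mean ± SD (n = 3). The 3 elesclomol libraries hold 45.4 to 72.5 BCL2L11 reads per 100 MCL1 reads and the 3 PBS libraries 13.4 to 19.2.

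As a share of the summed BH3-only level per kb, BCL2L11 made up 42.9 ± 4.05% (SD) with PBS, 56.7 ± 15.9% with bortezomib and 66.5 ± 3.19% with elesclomol. It made up 44.8 ± 4.41% with the combination and 45.7 ± 4.51% with the delayed combination. The summed level of the other 7 genes was 28.2 to 39.5 CPM per kb over all libraries, with its 2 highest values in bortezomib 1 (39.5) and combination 1 (37.7). Because BCL2L11 was the most abundant member, this share follows its level and says little about relative changes of the low members.

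Among the survival genes, MCL1 was at 969 ± 53.9 (SD) CPM with PBS, 833 ± 76.2 with bortezomib, 647 ± 111 with elesclomol, 793 ± 22.5 with the combination and 761 ± 145 with the delayed combination. Its log2 fold change was -0.58 ± 0.14 with elesclomol (edgeR adjusted p = 0.233) and -0.35 ± 0.14 with the delayed combination (adjusted p = 0.427). BCL2 group means were 174 to 193.5 CPM and BCL2L1 group means 106 to 140.4 CPM. Of the effectors, BAX was at group means of 21.1 to 24.3 CPM and BAK1 at 11.2 to 14.3 CPM. BCL2, BAX and BAK1 overlapped PBS in all 4 treated groups, and BCL2L1 in all but the combination. MCL1 lay below PBS without overlap in all 4 treated groups, while 19.8% to 27.5% of all genes did not overlap PBS in each single comparison. CYCS, which encodes cytochrome c, was at 171.8 ± 12 CPM with PBS, with log2 fold changes of -0.29 with elesclomol, -0.24 with the combination and -0.22 with the delayed combination (adjusted p = 0.318 to 0.444). FADD, the adaptor that couples death receptors to caspase-8, was at 0.45 with bortezomib and 0.45 with the combination on the log2 fold change scale (adjusted p = 0.466 and 0.360). The bortezomib value was 0.20 without bortezomib 1 and the combination value 0.29 without combination 1, both GC-rich libraries. No gene passed among the 5 tested survival genes, 2 effectors, 12 apoptosome and caspase genes, 10 death receptor genes and 2 dynein light chains in any comparison with PBS. DESeq2 called MCL1 with elesclomol (-0.59, adjusted p = 0.0379).

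Transcription factors known to act on BH3-only genes were examined as a list of 15, and 0 passed in any comparison with PBS. FOXO3, a forkhead factor that can activate BCL2L11, was at 70.3 ± 1.93 (SD) CPM with PBS, 63.1 ± 6.46 with bortezomib, 69.1 ± 3.00 with elesclomol, 60.9 ± 3.28 with the combination and 53.9 ± 1.28 with the delayed combination. Its log2 fold change was -0.21 ± 0.09 with the combination (adjusted p = 0.345) and -0.38 ± 0.09 with the delayed combination (adjusted p = 0.238). JUN, an AP-1 subunit, went from 478 ± 77.1 CPM with PBS to 243 ± 9.64 with bortezomib, 127 ± 54.8 with elesclomol, 115 ± 74.8 with the combination and 75.9 ± 19.5 with the delayed combination. The JUN libraries of all 4 treated groups lay below PBS (log2 fold change -0.97, -1.92, -2.05 and -2.65, adjusted p = 0.123 to 0.458). ATF3, a stress-induced factor, was at -0.97, -1.14 and -1.44 with elesclomol, the combination and the delayed combination (adjusted p = 0.252 to 0.503). MYC was at 0.30 ± 0.13 with each combination (adjusted p = 0.354 and 0.443). DESeq2 called JUN in the 3 groups given elesclomol (adjusted p = 3.96e-04, 3.18e-04 and 1.83e-08), and in the delayed combination also FOXO3 (adjusted p = 0.0491) and ATF3 (adjusted p = 0.0399). JUN passed in edgeR with the delayed combination when combination 1 was left out (adjusted p = 0.0177), and ATF3 when delayed combination 1 was left out (-1.956, adjusted p = 0.0260).

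Among 12 tested genes of a list of FOXO targets, FBXO32 rose with elesclomol, by a log2 fold change of 1.65 ± 0.24 (edgeR adjusted p = 0.0109), and no other gene of the list passed in a comparison with PBS. FBXO32 encodes the ubiquitin ligase subunit atrogin-1. Its libraries were at 35.5, 25.62 and 24.96 CPM with elesclomol and 13.32, 7.163 and 7.443 CPM with PBS, and at 8.269 to 16.62 CPM in the other 9. The adjusted p was above the threshold when the level of host markers entered the model (1.36, adjusted p = 0.113). It was also above it without PBS 2 (0.126), without PBS 3 (0.138), without elesclomol 1 (0.0731) and without elesclomol 3 (0.0516). SESN3, which encodes the stress protein sestrin 3, had values in the opposite direction with bortezomib (-1.08), the combination (-1.28) and the delayed combination (-1.01; adjusted p = 0.158 to 0.419). SESN1 was at -0.44 with bortezomib and -0.59 with elesclomol (adjusted p = 0.449 and 0.338). KLF6 was at -0.95, -1.50 and -1.59 with elesclomol, the combination and the delayed combination (adjusted p = 0.198 to 0.538). DESeq2 called SESN3 with the combination (adjusted p = 0.0107) and KLF6 with the combination and the delayed combination (adjusted p = 0.00662 and 0.00210). Values of the list thus lay in both directions.

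On chromosome 2, exons of BCL2L11 overlap exons of the long noncoding gene MIR4435-2HG on the opposite strand in GENCODE 29. The strand setting of the counting is not given in the sources used here, so reads of this pair cannot be told apart with certainty. MIR4435-2HG was at 50.4 ± 3.85 (SD) CPM with PBS, 61.0 ± 1.44 with bortezomib and 58.1 ± 3.35 with elesclomol. Its log2 fold change was 0.27 ± 0.09 with bortezomib (adjusted p = 0.419) and 0.21 ± 0.09 with elesclomol (adjusted p = 0.597). Per 100 MIR4435-2HG reads there were 266 to 363 BCL2L11 reads with PBS and 592 to 794 with elesclomol, so the difference in BCL2L11 was the larger of the pair. The 6 genes around BCL2L11 on the list held 0 that passed in a comparison with PBS in the main edgeR fit. BAD overlaps GPR137 on the opposite strand in the same way, and GPR137 had 61 to 215 reads per library. The antisense gene BMF-AS1 had 0 reads.

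The 6 protein-coding genes whose log2 CPM correlated most with that of BCL2L11 over the 15 libraries, among 8602 candidates, were KLF3 (Pearson r = 0.91), TENT5C (0.89), NFIL3 (0.88), CD55 (0.88), RUBCN (0.88) and ERN1 (0.87). After the group means were removed, r was 0.74 to 0.88, in the same libraries by which the genes were chosen. These correlations describe libraries that share groups and depth and carry no test. KLF3 was at 70.85 and 73.27 CPM in bortezomib 2 and 3 but at 38.77 CPM in bortezomib 1, the same split as BCL2L11. It was at 76.69 to 97.35 CPM with elesclomol and 41.37 to 50.57 CPM with PBS. ERN1, which encodes the endoplasmic reticulum stress sensor IRE1, was at 365 ± 13.3 (SD) CPM with PBS, 504 ± 101 with bortezomib and 545 ± 54.8 with elesclomol. TENT5C, a poly(A) polymerase often mutated in myeloma, was at 995 ± 18.9 CPM with PBS and 1417 ± 60.8 with elesclomol. TENT5C stayed above its PBS range (979.8 to 1016 CPM) in the combination (1017 to 1245) and the delayed combination (1051 to 1272). ERN1 was at 417.1 to 494.8 CPM in the combination and 366.4 to 421.5 with the delay, against 349.8 to 372.9 with PBS. KLF3 overlapped PBS in both groups, as BCL2L11 did (36.68 to 44.32 and 31.35 to 52.05 CPM).

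**Figure D5:**
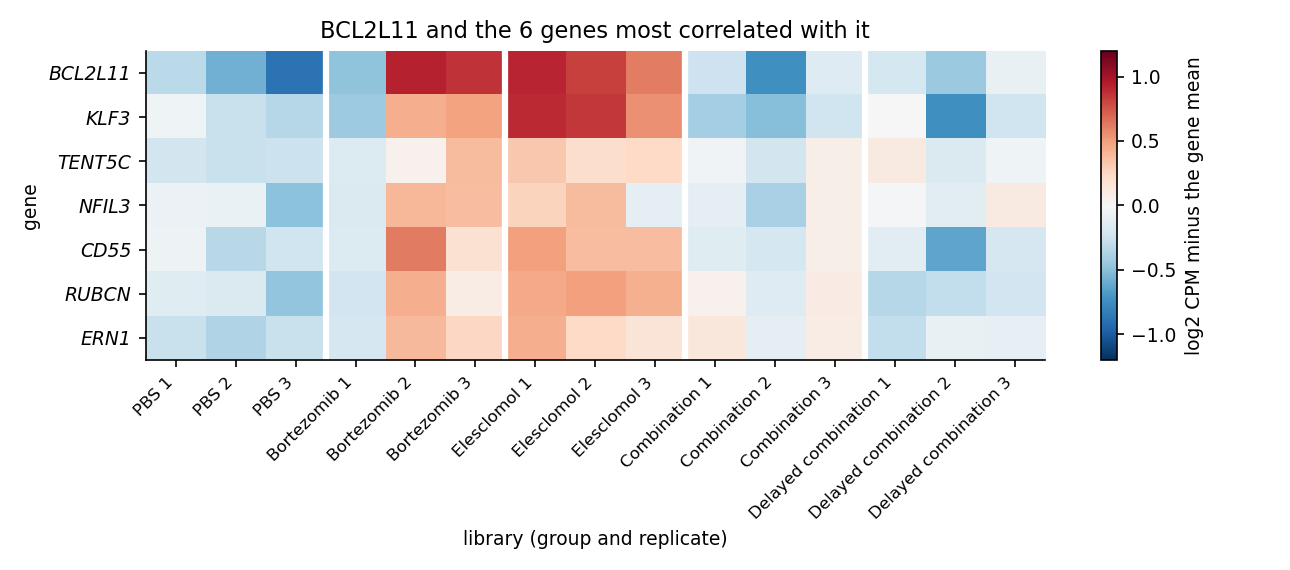
Log2 CPM minus the mean of the gene over the 15 libraries (colour scale) for BCL2L11 and the 6 genes most correlated with it, with libraries in columns by group. For KLF3 the elesclomol libraries lie at 76.69 to 97.35 CPM and bortezomib 1 at 38.77 CPM, within neither the elesclomol range nor that of bortezomib 2 and 3.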

How the data were processed

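Raw read counts per gene were deposited for 15 libraries, made from Trizol RNA by a strand-marking protocol with ribosomal depletion, per the labels' protocols. The authors used STAR 2.5.4b with GRCh37, then featureCounts 1.6.1, per the submitters' processing notes. The strand setting, the annotation release and the handling of mouse reads are unstated in these sources. Reads of conserved mouse transcripts can have been counted on human genes. Samples were grouped by title. The labels do not tie each library to a mouse, so p-values measure the spread between these samples. Replicates differed by more than sampling noise. Chi-square per degree of freedom was 2.25 to 3.24 between PBS libraries and 5.64 to 27.3 between libraries of the same treated group.

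All 15 libraries entered 1 edgeR 4.0.16 quasi-likelihood fit (R 4.3.3, TMM, filterByExpr with a minimum count of 10, 13085 genes), with Benjamini-Hochberg adjusted p under 0.05 as the threshold. Symbols came from GENCODE 29. Intervals of fold changes are the estimate with a normal 95% margin. Genes of mitochondrial DNA held 35.0% to 40.3% of counts. Fold changes of related genes are given where the unadjusted p was under 0.05. From each list these are at most 4 genes with p under 0.05 in at least 2 of the 4 comparisons with PBS, while MCL1, BCL2, BCL2L1, BAX, BAK1 and FOXO3 were always given. Members and lists were chosen with earlier results of these data known. Alternatives included limma 3.58.1 (voom with quality weights), DESeq2 1.42.0, DESeq2 size factors in edgeR, other filters and library sizes, a host marker covariate, a GC and length offset, a replicate block, only the groups compared, and leaving out libraries. A block fit restricted to the bortezomib and combination groups was added after seeing the data. It used the fact that only these groups have same-numbered libraries that all correlate (0.655, 0.523 and 0.118), a pairing taken from the data and not from the labels. The last of these values was below the highest for differently numbered libraries of the 2 groups (0.222). The code was tested on simulated data, and tables and plots used Python 3.11.15, pandas 2.3.3 and matplotlib 3.10.9.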

Additional observations from a re-analysis of the deposited data

Results flagged for a closer look

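For 3 members the libraries of one drug comparison all moved one way and those of the matching comparison all the other way. The share of all genes with such a pattern was not counted, so how common it is remains unknown. BCL2L11 was above the PBS mean in 3 of 3 elesclomol libraries and below the bortezomib mean in 3 of 3 combination libraries, with an interaction of -2.29 on the log2 scale (edgeR adjusted p = 0.107). BMF was above the PBS mean in 3 of 3 bortezomib libraries and below the elesclomol mean in 3 of 3 combination libraries, with an interaction of -1.16 (adjusted p = 0.350). HRK showed the same directions as BMF on 1 to 16 reads per library, with an interaction of -0.67 (adjusted p = 0.841). None of the 3 interactions passed the threshold in the main edgeR fit of all libraries. On the same libraries DESeq2 called 1 member for the interaction, BCL2L11, and voom called 2 members (0.245% and 2.37% of genes). No group was large enough for the test of single outlying samples.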

How the results depend on the processing

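When each library was left out in turn, the count of members past the threshold ranged from 0 to 1 for bortezomib and for elesclomol against PBS, for the combination against elesclomol, for the delayed combination against bortezomib and for the interaction, and the 1 was reached without bortezomib 1, where 0.0229%, 0.168%, 0.0459%, 0.0306% and 0.206% of all genes passed. For elesclomol it was also reached without combination 1 or combination 2 (0.115% and 0.107% of genes). The log2 value of BCL2L11 then ranged from 0.92 to 1.47 (bortezomib against PBS), 1.23 to 1.51 (elesclomol against PBS), -1.26 to -0.99 (combination against elesclomol), -1.13 to -0.58 (delayed combination against bortezomib), -0.0388 to 0.23 (delayed combination against combination) and -2.62 to -2.07 (interaction).

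Without the 3 GC-rich libraries, BCL2L11 passed at 1.48 for bortezomib, 1.37 for elesclomol, -1.30 for the combination against bortezomib, -1.201 against elesclomol and -2.68 for the interaction. The members past the threshold were then 1, 2, 1, 1 and 2, while 0.0688%, 0.359%, 0.0306%, 0.0688% and 0.352% of all genes passed. With voom it passed at 1.36, 1.40 and -2.40 (bortezomib, elesclomol, interaction), and 2, 2, 2, 1, 1 and 2 members passed for bortezomib, elesclomol, the combination and the delayed combination against PBS, the combination against bortezomib and the interaction. Of all genes, voom called 5.66%, 0.413%, 10.7%, 1.28%, 0.267% and 2.37% in that order. With DESeq2 it passed at 1.36, -1.15 and -2.28 (elesclomol, combination against elesclomol, interaction), with 2, 1 and 1 members, and 1 for the combination against PBS. With no filter 2 members passed for elesclomol, 2 for the combination, 1 for the delayed combination and 1 for the interaction, against 0.368%, 0.602%, 0.55% and 0.362% of 35074 genes. With only the groups compared 2 passed for elesclomol (1.04% of all genes), BCL2L11 at 1.37. The cause was not tested.

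Signs turned with the GC and length offset for PMAIP1 with bortezomib (0.0615), BAD and BBC3 with the combination (-0.0769 and -0.0211) and both with the delayed combination (-0.0143 and -0.14), and with the host covariate for BAD with elesclomol (0.00605). Leaving out 1 library turned BBC3 with bortezomib (-0.47 to 0.10) and the delayed combination (-0.0817 to 0.22), BID with elesclomol (-0.0234 to 0.12), and HRK with bortezomib (-0.0506 to 0.77), the combination (-0.0429 to 0.79) and the delayed combination (-0.33 to 0.50).

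The replicate number as a block in all libraries left 0 members past the threshold in each of the 9 comparisons (BCL2L11 at 1.124, 1.36 and -2.28 for bortezomib, elesclomol and the interaction), and the added block fit of the bortezomib and combination libraries changed no call of a member. Neither did the other size factors or library sizes. HRK, BBC3, PMAIP1, ATF3 and SESN3 have no value under the filter on mean level. HRK, with 1 to 16 reads, is the member with the lowest counts above 0.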
